A study of Homo sapiens with 26 samples.

Results

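The 10 genes ACOT7, FBXO21, AKAP12, SLC22A17, JAZF1, CTXN1, MATK, PITHD1, CLEC2L and POLR3G were chosen by their large changes after knockdown of BRDT, and were 10 of 26485 gene symbols measured. ACOT7, FBXO21, AKAP12, CTXN1, MATK and PITHD1 had been selected on both KYSE180 and TE6 cells, and CLEC2L, POLR3G, SLC22A17 and JAZF1 on KYSE180 cells alone. The siBRDT values below are therefore a description and carry no test. Whether the genes also moved under siTP63, and whether they moved the opposite way under BRDT overexpression, was measured in other treated libraries. Their controls were other libraries too, except in TE6, where siTP63 and siBRDT shared the control libraries.

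KYSE180, TE6 and KYSE150 are cell lines from human esophageal squamous cell carcinoma (ESCC), and 26 RNA-seq libraries of them fell into 11 groups in 5 experiments. In KYSE180, 3 siBRDT libraries were set against 3 control siRNA (siCont) libraries, and, in a separate experiment, 2 siTP63 libraries against 2 siCont libraries. In TE6, 2 siBRDT and 2 siTP63 libraries shared 2 siCont libraries. In KYSE150, 2 siTP63 libraries were set against 2 siCont libraries, and 3 libraries with BRDT overexpression (BRDT-OE) against 3 control libraries. Per the study's methods, siRNAs were delivered by lipid transfection, the BRDT plasmid or its empty vector by electroporation, and RNA was isolated 48 h after knockdown. Each group was 1 cell line under transient transfection, and no source used here states whether libraries came from separate cultures, so p-values measure only the spread between these libraries.

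BRDT is a BET family protein whose bromodomains bind acetylated histones, and it is normally made in male germ cells. TP63 encodes a transcription factor of squamous epithelia. A small interfering RNA (siRNA) lowers its target by pairing along its whole length, and it can also lower other transcripts that match only its seed, the guide strand positions next to the 5′ end. The members belong to unrelated families. ACOT7 cleaves acyl-CoA to free fatty acid, FBXO21 is a substrate receptor of SCF ubiquitin ligases, AKAP12 is a scaffold that anchors protein kinase A, SLC22A17 is a receptor for lipocalin-2, and JAZF1 is a zinc finger protein of the NuA4/TIP60 acetyltransferase complex. CTXN1 is cortexin 1, a small membrane protein of neurons, MATK is a kinase that inhibits SRC family kinases, PITHD1 carries a PITH domain, CLEC2L is a C-type lectin-like membrane protein, and POLR3G is a subunit of RNA polymerase III.

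Because a large change under one siRNA can be particular to that siRNA, the sequences available for the study are shown first. The study lists 4 siRNAs against BRDT, 2 against TP63 and 1 non-targeting siRNA, and the labels do not say which of them, alone or pooled, was used for which library. The sense strands are written 5′ to 3′, and capitals mark the 7 bases that pair with positions 2 to 8 of the guide, so that a transcript with the capital letters matches the seed.
BRDT #2: caaaucaacuuCAGUAUCu
BRDT #4: guagagagaacACUAAUGa
BRDT #3: gaaaauggauaACCAAGAa
BRDT #18: gagauaaacuuGGGCGAGu
TP63 #8: cgacagucuugUACAAUUu
TP63 #5: caucaugucugGACUAUUu
Non-targeting siRNA #5: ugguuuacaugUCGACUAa

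Each BRDT sequence occurred whole in BRDT transcripts of GENCODE release 44, in 15 (#2), 9 (#3), 8 (#4) and 5 (#18) of the 24 annotated transcripts. The TP63 sequences occurred in 5 (#5) and 12 (#8) of 14 TP63 transcripts. The 3′ UTR of each member's longest coding transcript was then searched for the 7-base seed matches. BRDT #2 had a match in ACOT7 and FBXO21, BRDT #3 in JAZF1, BRDT #4 in AKAP12, and BRDT #18 in no member. TP63 #8 had a match in 4 members, 3 that fell under siBRDT (FBXO21, AKAP12 and JAZF1) and 1 that rose (POLR3G), and TP63 #5 and the non-targeting siRNA had none. For the BRDT siRNAs, 4 of the 5 members that fell under siBRDT held a seed match, and 0 of the 5 that rose. Over all genes past the limits defined below, a match to any BRDT seed was held by 41.9% of those that fell and 19.8% of those that rose in KYSE180, and by 41.4% and 15.6% in TE6. SLC22A17, the member with the largest fall, held none. The stretches of 19 bases around these matches are shown because they let the pairing outside the seed be read, with the seed match in capitals.
ACOT7 (BRDT #2): ttatatcattcCAGTATCa
FBXO21 (BRDT #2): aaaatctacttCAGTATCa
JAZF1 (BRDT #3): gatatctgcggACCAAGAt
AKAP12 (BRDT #4): ctttaaaattcACTAATGa

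The FBXO21 stretch was identical to the siRNA at 16 of 19 positions, the ACOT7 stretch at 10, the JAZF1 stretch at 11 and the AKAP12 stretch at 12. The median over all tested genes with a whole window around a match was 11 identical positions for BRDT #2 and 10 for BRDT #3 and BRDT #4. For BRDT #2, 3 of 1154 such genes reached 16 positions. Chosen after their values were seen, the other two were NSA2, with log2 fold changes under siBRDT of 0.26 in KYSE180 and 0.39 in TE6, and TMEM68, with -0.35 and -0.76. FBXO21 was chosen for its fall under siBRDT, so nothing is read from its value beside theirs.

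A seed match was common and followed 3′ UTR length. In the KYSE180 siBRDT comparison, 9.22% of 12523 genes with a 3′ UTR held a match to BRDT #2, 13.3% to BRDT #3, 9.77% to BRDT #4 and 3.59% to BRDT #18, and 28.6% to any of them. The median 3′ UTR was 3015.5 bases in genes with any match and 1005 bases in genes without. The median log2 fold change under siBRDT in KYSE180, taken as genes with a match minus genes without, differed by -0.16 for BRDT #2, -0.15 for BRDT #3, -0.14 for BRDT #4 and -0.03 for BRDT #18. It differed by -0.11 for TP63 #8, -0.02 for TP63 #5 and 0.08 for the non-targeting siRNA, which were not directed at BRDT. In TE6 under siBRDT the differences were -0.36, -0.15, -0.28 and 0.01 for the BRDT siRNAs in the same order, and -0.30, -0.25 and 0.06 for the others. Under siTP63, genes with a BRDT #2 match differed by 0.23 in KYSE180 and by -0.17 in TE6, and genes with a TP63 #8 match by 0.17 and -0.41. A seed match is a description of these letters, and the part of seed pairing in the members' changes was not tested.

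The libraries held 7582089 to 19372441 reads. Values are normalised counts, gene counts that the authors had scaled by library size factors within each experiment. A count of 0 in a library allows up to 3 reads, or 0.155 to 0.396 RPM (reads scaled to libraries of equal total), which covers counting error only. BRDT was at 830 to 1379 reads in KYSE180 siCont and at 124 to 228 in siBRDT (log2 fold change -2.75), changed by -2.23 in TE6, and went from 6 to 17 reads in KYSE150 control libraries to 12475 to 18833 in BRDT-OE. TP63 changed under siTP63 by -1.70 in KYSE180, -4.45 in TE6 and -2.34 in KYSE150, and under siBRDT by -0.58 in KYSE180 and -1.15 in TE6. The 6 squamous markers (KRT5, KRT14, KRT6A, TP63, DSG3 and SFN) summed to 715 to 8368 RPM in every library, and the 4 immune markers to 0 to 2.27 RPM. The 4 fibroblast markers summed to 3.63 to 95.4 RPM and the 3 endothelial markers to 0.637 to 12.1 RPM.

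Among the genes that fell under siBRDT, the change in KYSE180 ran from log2 -3.26 for SLC22A17 to -1.78 for AKAP12, on the log2(normalised count + 1) scale used for all fold changes. SLC22A17 (chr14:23346314-23352912, minus strand, hg38) was at 724, 776 and 745 normalised counts in the KYSE180 siCont libraries and at 85.2, 71.8 and 74.9 in the siBRDT libraries. In TE6 it was at 499 and 432 in siCont and 159.7 and 214 in siBRDT, a log2 fold change of -1.32. The siBRDT libraries lay below every control library in both lines.

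JAZF1 (chr7:27830573-28180795, minus strand) was at 176, 212 and 218 in KYSE180 siCont and 31.9, 22 and 27.9 in siBRDT, a change of -2.85. TE6 libraries held JAZF1 at 62.4 and 68 in siCont and 35.6 and 29.9 in siBRDT, a change of -0.98. Whether the falls of SLC22A17 and JAZF1 differed between the lines was not tested. JAZF1 overlaps TAX1BP1 and the antisense transcript JAZF1-AS1 on the opposite strand, and the library kit did not mark strand, so reads of overlapping parts cannot be told apart.

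ACOT7 (chr1:6264269-6393767, minus strand) was at 1042, 1102 and 934 in KYSE180 siCont and 303, 276 and 287 in siBRDT, a change of -1.82. In TE6 it was at 1007 and 972 in siCont and 192 and 205 in siBRDT, a change of -2.31. The 2 lines had like control levels and neither overlapped its siBRDT libraries. FBXO21 (chr12:117141991-117190470, minus strand) was at 1185, 1253 and 1245 in KYSE180 siCont and 344, 357 and 338 in siBRDT, a change of -1.82. TE6 libraries held it at 535 and 570.2 in siCont and 142 and 149 in siBRDT, a change of -1.91. FBXO21 overlaps the antisense transcript TESC-AS1. AKAP12 (chr6:151239967-151358559, plus strand) was at 386, 439 and 440.3 in KYSE180 siCont and 106, 111 and 153 in siBRDT, a change of -1.78. In TE6 it was at 224 and 210.2 in siCont and 49.6 and 55 in siBRDT, a change of -2.03. Both AKAP12 and FBXO21 had lower siBRDT levels than any control library of their experiment.

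**Figure D1:**
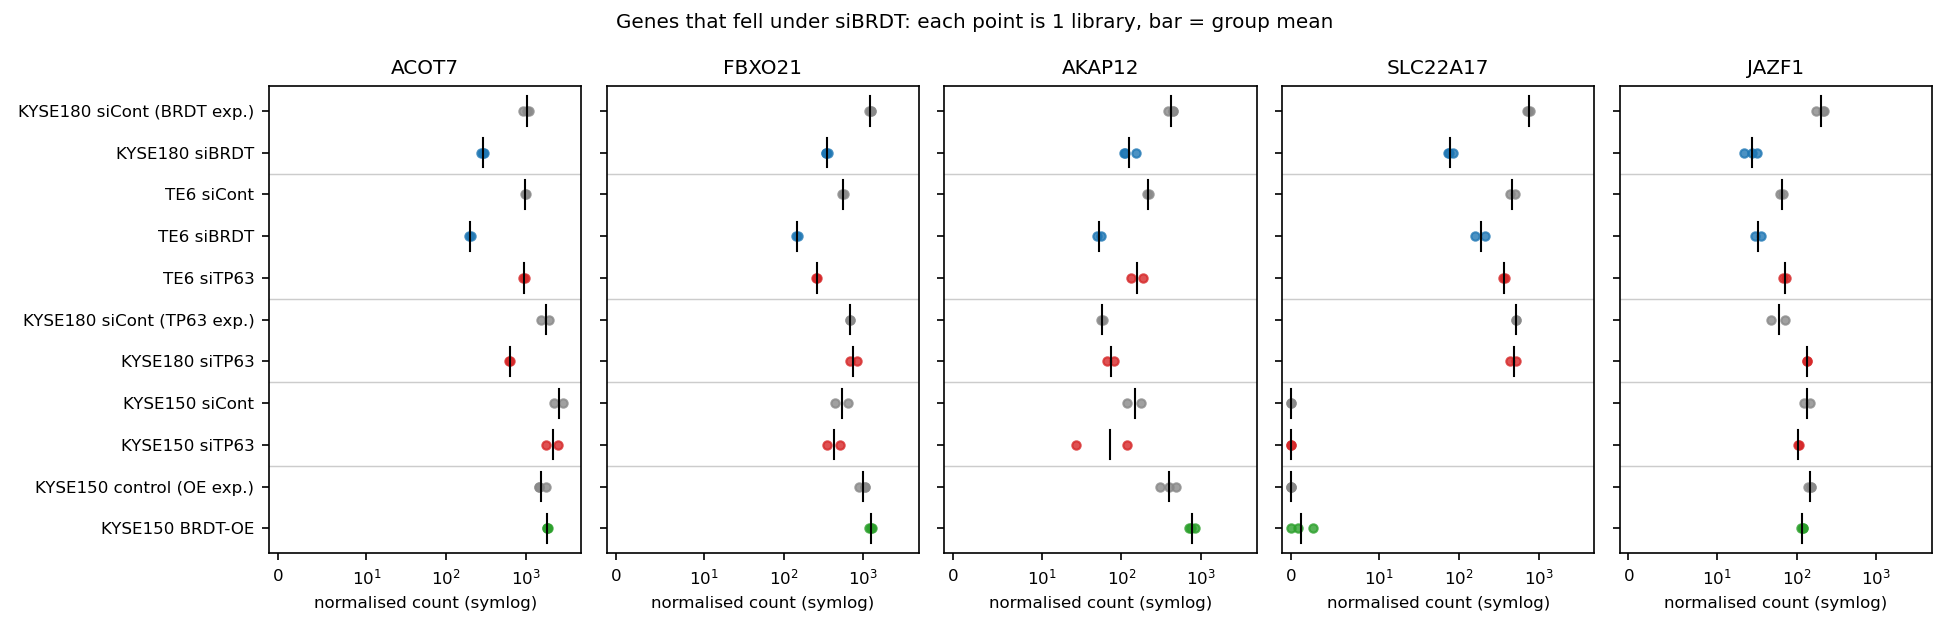
Normalised count (horizontal axis, linear below 10 and logarithmic above) of the 5 genes that fell under siBRDT, by group (vertical axis). Each point is 1 library and the bar is the group mean, grey for controls, blue for siBRDT, red for siTP63 and green for BRDT-OE; grey lines separate the 5 experiments, each normalised on its own. The siBRDT points lie left of their controls for every gene, and SLC22A17 is at or near 0 in KYSE150.

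Among the genes that rose under siBRDT, CLEC2L (chr7:139523685-139544985, plus strand) was at 141, 153 and 155 normalised counts in KYSE180 siCont and 957, 1018 and 855 in siBRDT, a change of 2.64. TE6 libraries held CLEC2L at 237 and 208 in siCont and 551 and 437 in siBRDT, a change of 1.14. CLEC2L had the largest rise in KYSE180 and a smaller one in TE6. POLR3G (chr5:90471748-90514557, plus strand) was at 62.5, 55.9 and 49 in KYSE180 siCont and 304, 325 and 339 in siBRDT, a change of 2.52. TE6 libraries held it at 109.9 and 131 in siCont and 287 and 186 in siBRDT, a change of 0.94. POLR3G encodes the form of this polymerase subunit whose close relative is POLR3GL, and it overlaps MBLAC2 on the opposite strand.

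CTXN1 (chr19:7924491-7926135, minus strand) was at 116, 99 and 85.3 in KYSE180 siCont and 529, 601 and 392 in siBRDT, a change of 2.32. TE6 libraries held CTXN1 at 46.6 and 33.6 in siCont and 348 and 264 in siBRDT, a change of 2.91. CTXN1 had the largest rise of the members in TE6. MATK (chr19:3777970-3802129, minus strand) was at 115, 91.5 and 79.4 in KYSE180 siCont and 373, 382 and 349 in siBRDT, a change of 1.95. TE6 libraries held MATK at 173 and 147 in siCont and 497 and 455 in siBRDT, a change of 1.57. The siBRDT and control libraries did not overlap for either gene. PITHD1 (chr1:23778418-23788232, plus strand) was at 299, 297 and 240.3 in KYSE180 siCont and 1008, 1027 and 985 in siBRDT, a change of 1.86. TE6 libraries held PITHD1 at 361 and 394 in siCont and 1171 and 1158 in siBRDT, a change of 1.62.

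All 10 members were past both limits used here, an adjusted p under 0.05 together with a change of 0.5 or more on the log2 scale, in both siBRDT comparisons. Over all genes tested, 15.8% fell and 14.5% rose past these limits in KYSE180, and 18.1% fell and 15.6% rose in TE6, and since this contrast chose the members nothing is read from the count. By size of change among 13589 genes in KYSE180, the members ranked from 11 (SLC22A17) to 158 (AKAP12). Among 13333 genes in TE6, the 6 members selected there too ranked from 15 (CTXN1) to 282 (MATK), and the other 4 from 539 (SLC22A17) to 1614 (POLR3G). The 22 listed interferon-response genes, of which 20 were tested, moved differently in the 2 lines: 4 rose and 2 fell in KYSE180, whereas 18 rose and none fell in TE6, with median log2 fold changes of 0.21 and 1.79. Of the 6 squamous markers, 4 fell in each line and 1 rose in TE6. The part of either list in the members' changes was not tested.

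**Figure D2:**
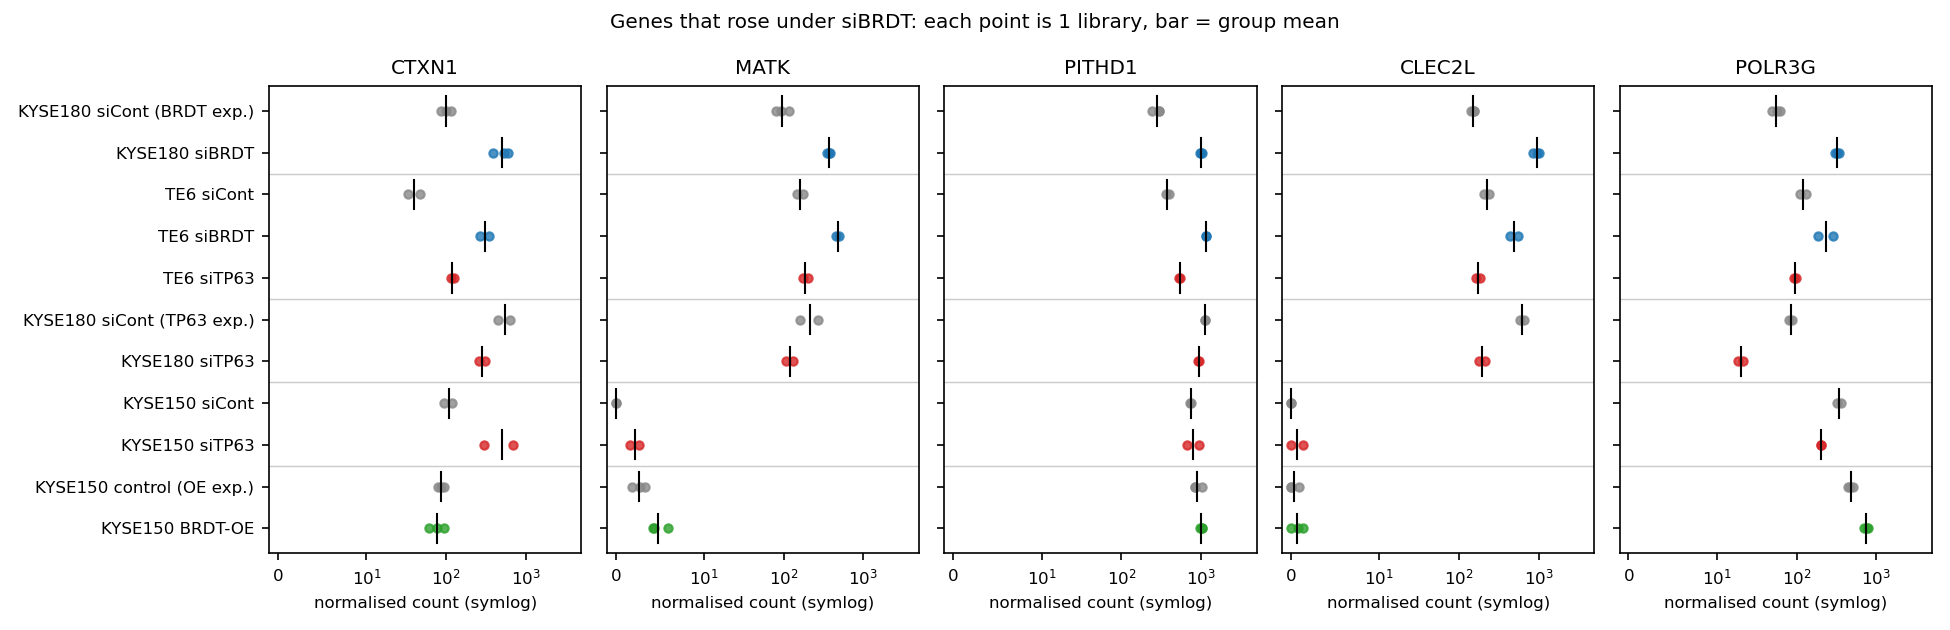
Normalised count (horizontal axis, linear below 10 and logarithmic above) of the 5 genes that rose under siBRDT, by group (vertical axis). Each point is 1 library and the bar is the group mean, grey for controls, blue for siBRDT, red for siTP63 and green for BRDT-OE; grey lines separate the 5 experiments. The siBRDT points lie right of their controls for every gene, whereas siTP63 in KYSE180 lies left of its controls, and MATK and CLEC2L are near 0 in KYSE150.

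In order to ask which of these genes also depended on TP63, siTP63 was compared with siCont in KYSE180, in libraries that had no part in choosing the members. Of the 10 members, 5 fell (ACOT7, CTXN1, MATK, CLEC2L and POLR3G) and 1 rose (JAZF1), whereas 25.7% of 13924 tested genes fell and 23.6% rose. ACOT7 moved the same way as under siBRDT, and the other 5 moved the opposite way. POLR3G was at 86.5 and 81.1 normalised counts in siCont and 18.4 and 21.5 in siTP63, a log2 fold change of -2.02 ± 0.28 (SE) with an adjusted p of 1e-06 (limma). CLEC2L was at 657 and 585 in siCont and 212 and 180.3 in siTP63, a change of -1.66 ± 0.16 (SE) with an adjusted p of 3.16e-09. Both groups stood apart for these genes. ACOT7 was at 1977 and 1569 in siCont and 643 and 618 in siTP63, a change of -1.48 ± 0.15 (SE) with an adjusted p of 5.65e-09. JAZF1 was at 47.2 and 71.9 in siCont and 134 and 133 in siTP63, a change of 1.19 ± 0.23 (SE) with an adjusted p of 8.32e-05. These 4 genes kept their direction and both limits when libraries were scaled to equal upper quartiles or to their total reads.

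The calls of CTXN1 and MATK were less firm. CTXN1 was at 640.2 and 445 in siCont and 311 and 259.8 in siTP63, a change of -0.91 ± 0.17 (SE) with an adjusted p of 7.06e-05 (limma), but the change was -0.38 with library-total scaling and -0.17 once the trend with transcript length and GC content was removed. MATK was at 267 and 161 in siCont and 131 and 108 in siTP63, a change of -0.80 ± 0.21 (SE) with an adjusted p of 0.00214, and it was -0.28 with library-total scaling. Without siCont replicate 1, MATK was at -0.43 and no longer past the limits. The other 4 members did not pass: FBXO21 changed by 0.12 ± 0.15 (SE), AKAP12 by 0.37 ± 0.24 (SE), PITHD1 by -0.28 ± 0.14 (SE) and SLC22A17 by -0.10 ± 0.15 (SE). With library-total scaling, FBXO21 (0.65) and AKAP12 (0.88) passed both limits upward, and PITHD1 and SLC22A17 changed sign. This experiment was the most sensitive to scaling, because library-total scaling moved the median of all genes from 0.00064 to 0.53 and changed the split of all calls from 3292 risen and 3577 fallen to 6781 and 1451.

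In TE6, siTP63 shared its siCont libraries with the siBRDT comparison that had selected 6 of the members, so its values are set beside those above and not counted as overlap. For those 6 members the values are a description, and no p-value is given. FBXO21 fell and CTXN1 and PITHD1 rose past the limits, 3 of 10 members, whereas 20.6% of 13333 genes fell and 18.3% rose. CTXN1 was at 46.6 and 33.6 normalised counts in siCont and 124 and 117 in siTP63, a change of 1.58 ± 0.21 (SE). FBXO21 was at 535 and 570.2 in siCont and 261 and 256 in siTP63, a change of -1.09 ± 0.13 (SE). Both genes and PITHD1 had been selected with these same siCont libraries, so nothing is read from the count of 3. PITHD1 was at 361 and 394 in siCont and 528 and 552 in siTP63, a change of 0.52 ± 0.11 (SE), close to the limit of 0.5. It was at 0.45 without siCont replicate 1 and at 0.48 without siTP63 replicate 2. The other 7 members did not pass. CLEC2L (-0.36 ± 0.16 (SE)) and SLC22A17 (-0.34 ± 0.16 (SE)) were more than 2 SE below no change. With the length and GC trend removed, CLEC2L (-0.60) and SLC22A17 (-0.68) passed both limits. AKAP12 was at -0.73 without siTP63 replicate 2. POLR3G (-0.33 ± 0.21 (SE)), ACOT7 (-0.05 ± 0.11 (SE)), JAZF1 (0.11 ± 0.23 (SE)) and MATK (0.23 ± 0.15 (SE)) were within 2 SE of no change, POLR3G being at 0.0064 with the length and GC trend removed.

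KYSE150 gave a narrower view, because MATK, CLEC2L and SLC22A17 had at most 7 reads in any KYSE150 library and were not tested there. Under siTP63, none of the other 7 members passed, in a comparison where 0% of 12335 genes fell and 0% rose past the limits with limma and 17.8% had an unadjusted p under 0.05. DESeq2 on the recovered reads called 259 genes down and 202 up and edgeR none, and 2 members (CTXN1 and POLR3G) had an unadjusted limma p under 0.05. CTXN1 was at 120.3 and 95.4 normalised counts in siCont and 303 and 691 in siTP63, a change of 2.09 ± 0.42 (SE) with an adjusted p of 0.12. Both siTP63 libraries were above both controls, and DESeq2 gave a change of 2.20 (adjusted p = 3.81e-05), whereas edgeR did not call it (0.111). POLR3G was at 356 and 317 in siCont and 201 and 201 in siTP63, a change of -0.74 ± 0.21 (SE) with an adjusted p of 0.17. AKAP12 was at 119 and 177 in siCont and 116 and 26.6 in siTP63, a change of -1.36 ± 0.68 (SE) with an adjusted p of 0.363 (limma). Of its siTP63 libraries, replicate 1 was close to the lower control, and without it the change was -2.40. ACOT7, FBXO21, PITHD1 and JAZF1 changed by -0.27, -0.33, 0.09 and -0.35. The smallest adjusted p of any gene in this comparison was 0.0800 (limma). Same-numbered siCont and siTP63 libraries deviated in opposite directions here (correlation -0.70), which the main fit took no account of.

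The siTP63 changes were then compared between lines in a joint limma fit of changes that were each taken within an experiment. KYSE180 and TE6 differed for 6 of 10 members, whereas 38.9% of 13891 genes differed. The TE6 controls had also helped to choose 6 members, among them ACOT7, FBXO21, CTXN1 and PITHD1. In contrasts with TE6, the values of those members are a description, no p-value is given, and nothing is read from the counts. The difference was -2.49 ± 0.49 (SE) for CTXN1, which fell in KYSE180 and rose in TE6. It was -1.69 ± 0.25 (SE) for POLR3G (limma adjusted p = 0.00337), -1.43 ± 0.27 (SE) for ACOT7 and -0.80 ± 0.22 (SE) for PITHD1. These were thus lower in KYSE180 relative to control. For PITHD1 the difference was -0.19 with the length and GC trend removed and -0.26 with library-total scaling. FBXO21 (1.22 ± 0.29 (SE)) and JAZF1 (1.08 ± 0.31 (SE), limma adjusted p = 0.0223) lay the other way. PITHD1, FBXO21 and JAZF1 did not pass in every limma fit that left out 1 library. JAZF1 was at 0.78 without KYSE180 siCont replicate 1 and FBXO21 at 1.07 without KYSE180 siTP63 replicate 2. KYSE180 and KYSE150 differed for 4 of the 7 members tested in both lines, namely CTXN1 (-2.99), POLR3G (-1.28), ACOT7 (-1.22) and JAZF1 (1.54), whereas 13.4% of genes did. TE6 and KYSE150 differed for 0 of 7 members (limma), with 8.29% of genes past an adjusted p of 0.05. With the replicate number as a block, none of these differences passed. The share of all genes passing with that block is not given here, so nothing is read from it. Without KYSE180 siTP63 replicate 2, the count was 3 against TE6 and 2 against KYSE150, and without replicate 1 it was 1 against KYSE150. Interferon-response genes rose for 21 of 21 tested under siTP63 in KYSE180 and for 15 of 20 in TE6, with median log2 fold changes of 2.88 and 1.63. All 6 squamous markers fell in both lines. The endothelial markers summed to 1.36 and 2.09 RPM in siCont and 11.3 and 12.1 in siTP63 in KYSE180, where VWF, the 1 tested, rose (2.29), as it did in TE6 (0.85). Fibroblast markers went from 32.9 and 35.7 to 64.4 and 74.4 RPM in KYSE180, where COL1A1, the 1 tested, did not pass (0.49). The part of any of these lists in the members' changes was not tested.

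**Figure D3:**
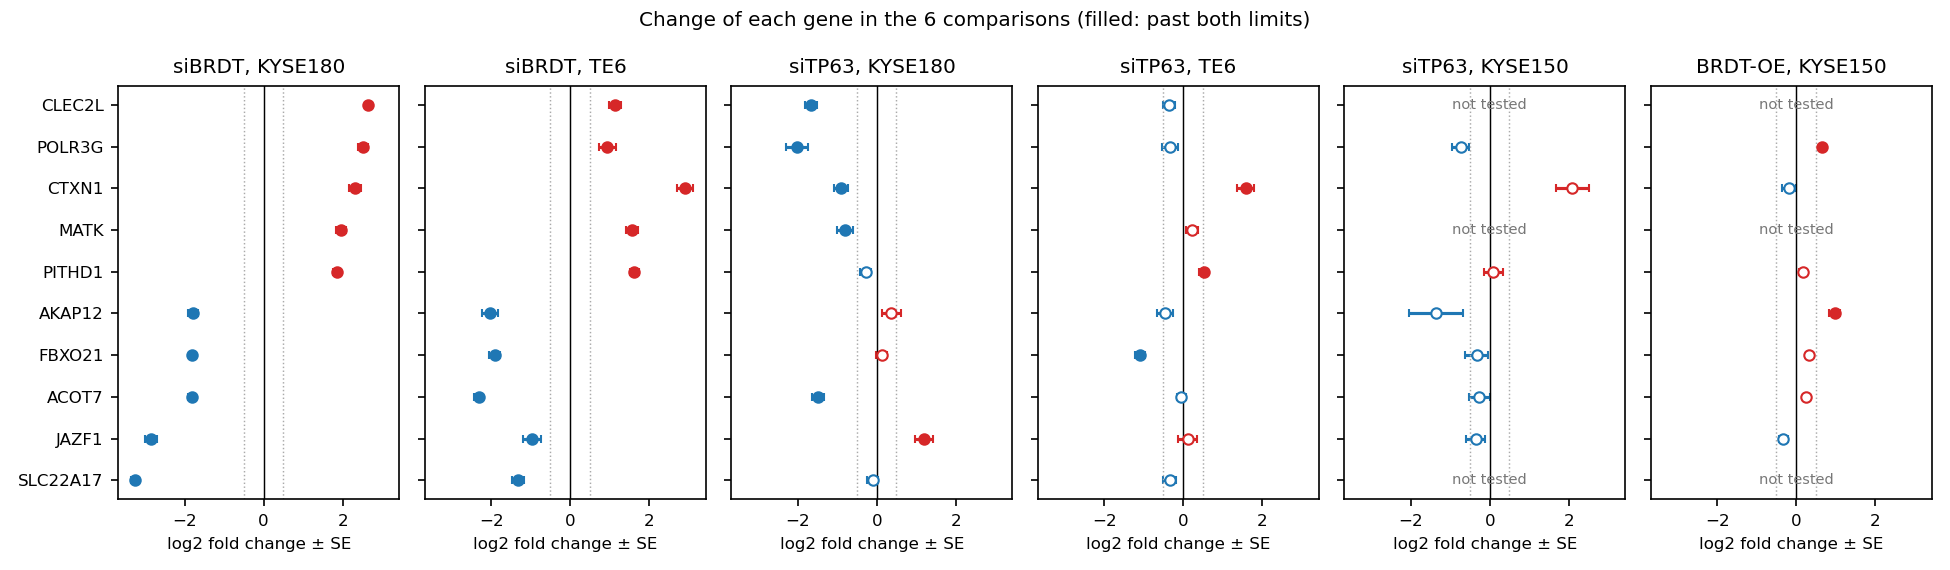
Log2 fold change on the log2(normalised count + 1) scale (horizontal axis, bars are SE) of the 10 genes (vertical axis, ordered by their siBRDT change in KYSE180) in the 6 comparisons. Red marks positive and blue negative values, filled points passed both limits, and dotted lines mark 0.5 in either direction. Under siTP63 in KYSE180 the genes at the top lie left of 0, under siTP63 in TE6 3 points are filled, and under BRDT-OE AKAP12 and POLR3G are filled.

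To see which members mirrored the knockdown, BRDT-OE was compared with its control in KYSE150, in which 7 members could be tested. AKAP12 and POLR3G rose, 2 of 7, whereas 10.5% of 12765 genes rose and 16% fell. AKAP12 was at 391, 479 and 309 normalised counts in the control and 710.1, 753 and 834 in BRDT-OE, a change of 0.98 ± 0.14 (SE) with an adjusted p of 0.000282 (limma). Every BRDT-OE library lay above every control, and the direction was opposite to siBRDT. POLR3G was at 443, 513 and 471 in the control and 774, 693 and 785 in BRDT-OE, a change of 0.66 ± 0.09 (SE) with an adjusted p of 0.000194. POLR3G thus rose under both the knockdown and the overexpression, in different lines.

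Smaller differences passed the adjusted p but not the limit on size. FBXO21 was at 1039, 1034 and 884 in the control and 1171, 1289.7 and 1251 in BRDT-OE, a change of 0.33 ± 0.08 (SE) with an adjusted p of 0.00795 (limma). ACOT7 was at 1462, 1464 and 1793 in the control and 1832, 1916 and 1860.3 in BRDT-OE, a change of 0.26 ± 0.09 (SE) with an adjusted p of 0.0319. Both were opposite in sign to siBRDT, but with library-total scaling, which moved the median of all genes to -0.11, their adjusted p-values were 0.0733 and 0.205. JAZF1 was at 153, 149.97 and 138 in the control and 119, 112 and 119.5 in BRDT-OE, a change of -0.33 ± 0.12 (SE) with an adjusted p of 0.0356, in the same direction as under siBRDT. CTXN1 (-0.19 ± 0.18 (SE)) and PITHD1 (0.17 ± 0.09 (SE)), both of which rose strongly under siBRDT, did not pass, and CTXN1 changed sign (0.29) once the length and GC trend was removed. Interferon-response genes fell for 12 of 18 tested under BRDT-OE, and their part in these values was not tested.

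Read across the comparisons, SLC22A17 was the member with the largest siBRDT change and passed both limits in no comparison outside siBRDT, with siTP63 changes of -0.10 in KYSE180 and -0.34 in TE6 and no tested value in KYSE150. It did pass under siTP63 in TE6 once the length and GC trend was removed (-0.68), as did CLEC2L (-0.60). In the main fits with the deposited scaling, AKAP12 passed outside siBRDT only under BRDT-OE. MATK, CLEC2L, ACOT7 and JAZF1 passed under siTP63 in KYSE180, and POLR3G passed there and under BRDT-OE. CTXN1 passed under siTP63 in KYSE180, downward. The siTP63 calls in TE6, upward for CTXN1 and PITHD1 and downward for FBXO21, are left out of this count, since all 3 genes had been selected with the same siCont libraries. Passing in one comparison and not in another does not show that the changes differ.

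The 2 sets of KYSE180 siCont libraries, 1 per experiment, did not hold the members at like levels. Levels are given here in RPM from the recovered reads, since the tables were normalised separately, and no test was made across tables. AKAP12 was at 34.6, 39.3 and 40 RPM in the siCont libraries of the BRDT experiment and at 3.36 and 3.35 in those of the TP63 experiment, 11.3-fold lower. The latter were below the siBRDT libraries, at 10.1, 10.6 and 14.8 RPM. JAZF1 was at 15.8, 18.9 and 19.8 RPM in the first set and 2.73 and 4.34 in the second, 5.15-fold lower. FBXO21 and SLC22A17 were also lower in the second set, by 2.75-fold and 2.2-fold in mean RPM.

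CTXN1 was at 10.4, 8.86 and 7.76 RPM in the first set and 37 and 26.8 in the second, 3.54-fold higher, and PITHD1 and CLEC2L were higher by 2.67-fold and 2.72-fold. For these 7 genes the second set was shifted in the direction that siBRDT had moved them, and the first set of controls is part of the contrast that chose the members. ACOT7, MATK and POLR3G overlapped between the sets. Of 12580 genes with at least 1 RPM in both sets, 42.1% were 2-fold or more apart, and the median gene was lower by 0.49 on the log2 scale in the second set (-0.49). Relative to that median, the 10 members' differences were -3.01 for AKAP12, -1.87 for JAZF1, -0.96 for FBXO21, -0.64 for SLC22A17, 2.31 for CTXN1, 1.93 for CLEC2L, 1.91 for PITHD1, 1.04 for MATK, 0.67 for ACOT7 and 0.47 for POLR3G. That of ACOT7 ran against its siBRDT direction. TP63 itself was at a mean of 892 RPM in the first set and 166 in the second, and at 634 in the siBRDT libraries. BRDT was at 95.9 RPM in the first set and 48.5 in the second. The siTP63 changes in KYSE180 therefore started from other control levels than the siBRDT changes.

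**Figure D4:**
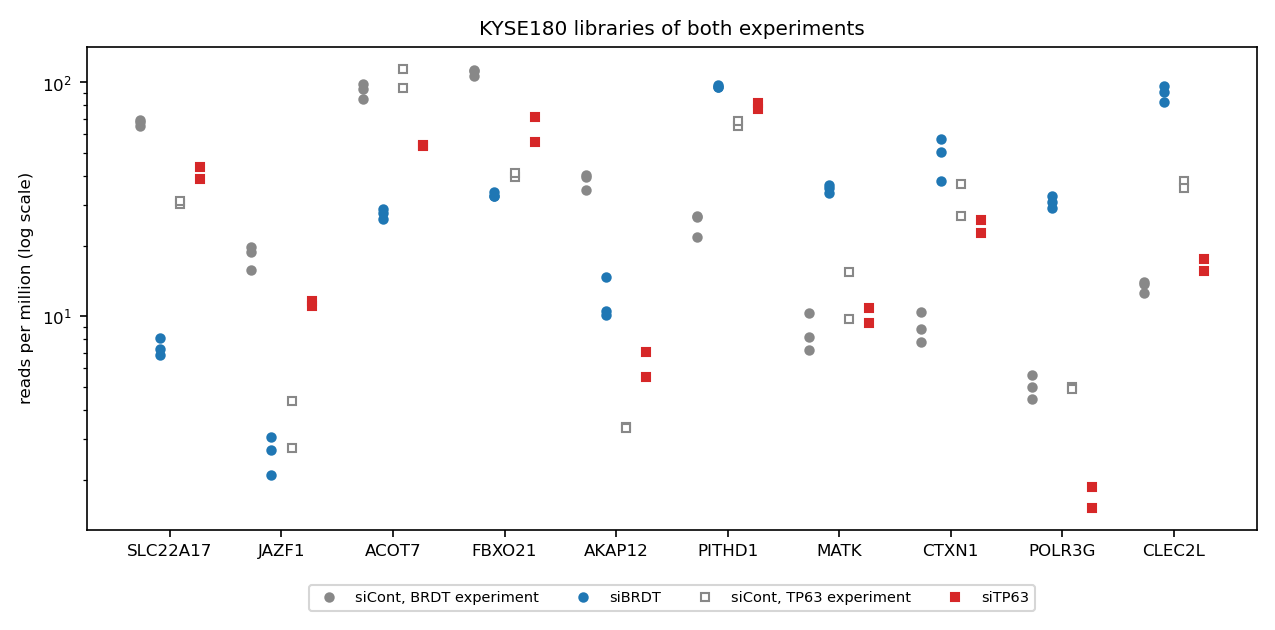
RPM (reads scaled to libraries of equal total, vertical axis, log scale) of the 10 genes in the 10 KYSE180 libraries, 1 point per library. Filled grey circles are siCont and blue circles siBRDT of the BRDT experiment, open squares are siCont and red squares siTP63 of the TP63 experiment. The open squares of AKAP12 lie below its blue circles, those of JAZF1, CTXN1, PITHD1 and CLEC2L lie on the blue side of the filled grey circles, and those of POLR3G coincide with them.

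The gene families of the members were described by their other members. Of the 17 other RNA polymerase III subunits, all tested, 10 fell and none rose under siTP63 in KYSE180 (median log2 fold change -0.86, all genes 0.00064), including POLR2L (-1.77) and POLR3K (-1.64), where 25.7% of all genes fell. These values hold for the deposited scaling. Library-total scaling moved the median of all genes to 0.53, and the list was not recounted with it. The shares of all genes past the limits under siBRDT, against which the family counts can be read, were 14.5% up and 15.8% down in KYSE180 and 15.6% up and 18.1% down in TE6, and under BRDT-OE 10.5% up and 16% down. Under siBRDT, 4 of the 17 rose and none fell in KYSE180, led by POLR3E (0.76), and 5 rose and 1 fell in TE6, led by POLR2L (0.90). POLR3GL, the relative that takes the place of POLR3G in the polymerase, did not pass under siBRDT in either line (-0.17 in KYSE180 and 0.30 in TE6). Under BRDT-OE, POLR3GL fell by 0.96 on the log2 scale (adjusted p = 3.07e-05, limma), opposite to POLR3G, while POLR3B (0.92) and POLR3K (0.59) were among the subunits that rose.

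Among acyl-CoA thioesterases, 3 of 8 tested rose and 1 fell under siBRDT in KYSE180, and 0 of 7 passed in TE6. ACOT13, a mitochondrial member, changed by 0.61 under siBRDT in KYSE180 and by -1.10 under BRDT-OE, the reverse of ACOT7 in sign. It fell under siTP63 in both KYSE180 (-0.66) and TE6 (-0.75). ACOT9 fell under siTP63 in KYSE180 (-0.85). Under BRDT-OE 2 of 5 thioesterases fell.

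Of the A-kinase anchors and protein kinase A subunits, 3 of 16 tested rose and 3 fell under siBRDT in KYSE180, and 1 rose and 5 fell in TE6. The kinase subunit PRKAR2B changed by -1.24 in KYSE180 under siBRDT. Under BRDT-OE, in which AKAP12 rose, 5 of 14 rose and 1 fell. For SCF core and F-box O genes, 3 of 34 rose and 2 fell under siBRDT in KYSE180, and 3 of 33 rose and 7 fell in TE6. SKP1, the adaptor that F-box proteins bind, changed by -0.37 and 0.09.

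The NuA4/TIP60 complex, which holds JAZF1, had 0 of 18 other members past the limits under siBRDT in KYSE180 and 2 risen and 4 fallen in TE6. Its catalytic subunit KAT5 changed by 0.16 and -0.30 there and did not pass in any of the 6 comparisons. CSK, the closest relative of MATK, passed in none of the 6 either. Lipocalin-2 (LCN2), the ligand of SLC22A17, fell under BRDT-OE by 2.32 on the log2 scale (adjusted p = 2.73e-05, limma) and under siTP63 in KYSE180 by 1.47 (0.00728), and in TE6 under siBRDT its mean was 7.41 normalised counts in siCont and 18.3 in siBRDT. CLEC2D, the relative of CLEC2L, went the other way from it in KYSE180, with -0.79 under siBRDT and 0.92 under siTP63. TXNL1, which shares the PITH domain of PITHD1, passed both limits in no comparison.

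The 22 genes nearest to the members on the chromosome, or overlapping them, were checked for a like change. Under siBRDT, 4 of 22 tested passed in KYSE180, 2 in the member's direction and 2 against it, where 15.8% of all genes fell and 14.5% rose. In TE6, 5 of 21 passed, 3 with and 2 against, where 18.1% fell and 15.6% rose. Under siTP63 in KYSE180, 14 of 22 passed, 8 in the direction of a member that passed, 2 against and 4 beside a member that did not. There 25.7% of all genes fell and 23.6% rose. In TE6 under siTP63, 5 of 21 passed, 4 of them beside a member that did not, where 20.6% fell and 18.3% rose. With BRDT-OE, 7 of 19 passed, 6 of them beside a member that did not pass or was not tested. The shares of all genes there were 16% down and 10.5% up. HES2, encoded beside ACOT7, fell with it in KYSE180 under both siBRDT (-1.07) and siTP63 (-0.98) but not in TE6 under siBRDT (0.16). NOS1, beside FBXO21, fell with it under siTP63 in TE6 (-1.62). TIMM44, a mitochondrial import protein encoded 583 bases from CTXN1 on the same strand, changed with it in KYSE180, by 1.10 under siBRDT and -1.01 under siTP63, and in TE6 by 0.95 under siBRDT. Under siTP63 in TE6, where CTXN1 rose, TIMM44 was at 0.24 ± 0.10 (SE) and did not pass. LYSMD3, encoded 1054 bases from POLR3G on the opposite strand, changed against it, by -0.84 and -1.17 under siBRDT in KYSE180 and TE6 and by 0.57 under siTP63 in KYSE180. MBLAC2, which overlaps POLR3G, changed by 0.30 and -0.60 under siBRDT without passing.

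In base composition, the longest transcripts of CTXN1 (72.8% G and C), MATK (65.8%), SLC22A17 (64.4%) and ACOT7 (58.4%) were above the upper quartile of 13293 tested genes, 56.7%. Promoters were found in RefSeq for 8 members, JAZF1 and POLR3G not among them, and that of CTXN1 was 79.7% G and C, and that of CLEC2L 73%, against an upper quartile of 72% over 10103 promoters of tested genes. The CTXN1 promoter, which had the highest share of G and C of the 8, is printed. The stretch is chr19:7926086-7926385 on the minus strand of GRCh38.p14, from 250 bases before to 50 after the start, with the GGGGCGGGG box (searched on both strands) in capitals.
CTXN1 promoter: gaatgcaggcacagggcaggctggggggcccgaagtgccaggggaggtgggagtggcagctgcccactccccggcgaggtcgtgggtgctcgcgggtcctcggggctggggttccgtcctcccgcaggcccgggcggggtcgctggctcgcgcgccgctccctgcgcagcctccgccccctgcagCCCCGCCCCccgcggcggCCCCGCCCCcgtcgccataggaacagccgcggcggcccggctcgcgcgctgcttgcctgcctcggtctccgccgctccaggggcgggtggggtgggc

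The GGGGCGGGG box occurred in 4 of the 8 promoters (ACOT7, CTXN1, PITHD1 and CLEC2L) and in 16% of 27305 RefSeq promoters. Unlike the G and C quartile above, this set and the shares below are not limited to promoters of tested genes. CCAAT occurred in ACOT7, FBXO21 and SLC22A17 and in 35.7% of promoters. GAANNTTC, the core of a heat shock element, occurred in SLC22A17 and in 6.87%. TGACTCA and TATAAA occurred in none of the 8 and in 4.92% and 12% of all promoters. All were searched on both strands, and no letters of one motif overlap another in the stretch shown.

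The gene most like each member was sought over the 26 libraries, on log2 values taken relative to the control mean of each experiment, among 11330 genes, as a description in which libraries of a treatment share their change. The Pearson r was 0.984 for FBXO21 with KIF5B, 0.974 for PITHD1 with SERBP1, 0.963 for POLR3G with BAK1 and 0.959 for CTXN1 with ZFAND2A. It was 0.956 for JAZF1 with PRKCH, 0.949 for SLC22A17 with XPNPEP1, 0.941 for CLEC2L with FAM73B and 0.937 for ACOT7 with MRPS35. AKAP12 was closest to CALU (0.933) and MATK to BAG1 (0.910). The 26 libraries include the siBRDT libraries that chose the members, so genes with large changes there are favoured. Nothing is read from the size of r.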

How the data were processed

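The deposited values are a normalised signal per gene symbol: the authors aligned reads to hg38, counted reads by gene and scaled these counts with size factors within each of the 5 experiments. The submitters' processing notes name STAR 2.6.0, HTSeq 0.11.2 and DESeq2 1.24.0. Annotation and strand setting are not given in the sources used here. Dividing by the step of 1 read gave whole reads for 100% of values (tolerance 0.01), and 0 columns were left unused.

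Changes were fitted with limma 3.58.1 (R 4.3.3, eBayes with trend) on log2(value + 1), which understates changes of low genes, for genes with a mean value of at least 10, 2-sided, with Benjamini-Hochberg adjustment over all genes tested. Experiments had separate fits, with the 3 TE6 groups together. A gene rose or fell at an adjusted p under 0.05 and a log2 change of 0.5 or more. Differences between lines came from 1 joint fit without a limit on size. The scripts were tested on simulated data. The deposited unit is not raw counts, so count tests on the recovered reads (DESeq2 1.42.0, edgeR 4.0.16) served as alternatives, beside a pseudocount of 0.1, no filter, upper-quartile rescaling, removal of the trend with transcript length and GC content, a replicate block, leaving out each library, and 2 chosen after seeing the data (crossed replicate numbers and scaling to total reads).

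The members, the gene lists and the rule for naming genes (the members, their relatives in the lists, the nearest tested genes and the most alike gene) were chosen with earlier results of these data known. Replicate numbers were not used as pairs in the main fits. The correlation of deviations of same-numbered libraries was over 0.1 for all pairs in no comparison. It ran from -0.70 in KYSE150 siTP63, where same-numbered libraries deviated in opposite directions, to 0.18 in KYSE180 siBRDT. Positions are those of GENCODE release 44 on hg38, matched for 92.7% of symbols. Drawing used Python 3.11.15 and matplotlib 3.10.9.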

Additional observations from a re-analysis of the deposited data

Results flagged for a closer look

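The groups held 2 or 3 libraries, too few for a check for single outlying libraries. The effect of siTP63 differed between KYSE180 and TE6 in the joint limma fit for 6 members, where 38.9% of 13891 genes differed. The 6 were ACOT7 (-1.43), FBXO21 (1.22), CTXN1 (-2.49), PITHD1 (-0.80), POLR3G (-1.69) and JAZF1 (1.08), each given as the log2 change in KYSE180 minus that in TE6. Between KYSE180 and KYSE150 the effect differed for ACOT7 (-1.22), CTXN1 (-2.99), POLR3G (-1.28) and JAZF1 (1.54), where 13.4% of genes differed. The TE6 controls in these values had also helped to choose ACOT7, FBXO21, CTXN1 and PITHD1. With the replicate number as a block, 0 of these differences passed. Nothing is read from the 0, since the share of all genes passing with the block is not given here.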

How the results depend on the processing

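Of 1181 values of single members under the alternatives, 1068 kept their direction and their side of the limits (for siBRDT, moved by less than their SE), 41 no longer passed, 27 newly passed, 18 changed sign and 27 moved by more than 1 SE. For counts of members, 125 of 143 values were within 1.5 times the main count. Where a value changed, the cause was not tested.

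In KYSE150 under siTP63, 1 member in place of 0 passed with DESeq2, with replicate numbers as a block and without the length and GC trend. Over all genes, DESeq2 called 259 down and 202 up of 12335, and the block 48 and 89. With the trend removed, 437 fell and 280 rose of 12089. Same-numbered libraries deviated in opposite directions there, and with the numbers crossed as a block, chosen after seeing the data, 3 members passed. In that fit 1774 of 12335 genes fell and 1626 rose, against 0 in the main fit, so nothing is read from the 3. Under BRDT-OE, 5 members in place of 2 passed without the limit on size, and the share of all genes passing without that limit was not counted. With the replicate block, for which the share of all genes is not given, differences of the siTP63 change passed for 0 members. Without it they passed for 6 (KYSE180 and TE6) and 4 (KYSE180 and KYSE150). Leaving out 1 library gave 3 to 7 and 1 to 6, and 0 to 2 for TE6 and KYSE150, where 1 passed with the length and GC trend removed. The block changed no other count of members by over 1.5 times.

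The sign changed, with the length and GC trend removed, for FBXO21 (-0.13), PITHD1 (0.080) and SLC22A17 (0.17) under siTP63 in KYSE180, for MATK (-0.16) and POLR3G (0.0064) under siTP63 in TE6, for CTXN1 under BRDT-OE (0.29), and for the difference of PITHD1 between KYSE180 and KYSE150 (0.077) and of ACOT7 between TE6 and KYSE150 (-0.055). With library-total scaling it changed for PITHD1 (0.24) and SLC22A17 (0.42) under siTP63 in KYSE180 and for PITHD1 between KYSE180 and KYSE150 (0.046), and with upper-quartile rescaling for SLC22A17 (0.090). Leaving out 1 library moved FBXO21 from -0.018 to 0.27 and SLC22A17 from -0.23 to 0.021 in KYSE180 under siTP63, PITHD1 in KYSE150 from -0.17 to 0.35, and the differences between TE6 and KYSE150 of ACOT7 from -0.044 to 0.47, AKAP12 from -0.15 to 1.93 and CTXN1 from -1.10 to 0.089.

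With library-total scaling the numbers of genes that rose and fell went from 1972 and 2143 to 2515 and 1697 for siBRDT in KYSE180, from 2074 and 2419 to 1571 and 3122 in TE6, and from 1343 and 2043 to 792 and 2685 for BRDT-OE. With 2 libraries a group, smaller changes of single members could not be resolved.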
